A study of Mus musculus with 6 samples.

Results

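The genes described here encode the subunits of the proteasome, and they were chosen by symbol. The rule took every gene whose symbol begins with Psma, Psmb, Psmc, Psmd or Psme followed by a digit, and left out 4 symbols that mark pseudogenes. It took 45 of the 48432 genes in the deposited table, and 44 of them had enough counts to be tested. Psmb11, a beta subunit known from the thymus cortex, had 0 fragments in all 6 libraries. Psmc3ip fits the rule by its letters but is known as a meiotic recombination factor that is no subunit. It is described apart, but the counts and medians over the 44 tested members include it.

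The proteasome is the barrel-shaped protease that degrades ubiquitin-tagged proteins in the cytosol and nucleus. Its 20S core is built of alpha rings, which gate the entrance, around beta rings, which hold the active sites. The 19S regulatory particle binds the tagged protein, unfolds it with a ring of ATPases (the base) and removes the ubiquitin in the lid. Under interferon, and in immune cells, the catalytic beta subunits Psmb5, Psmb6 and Psmb7 are exchanged for Psmb8, Psmb9 and Psmb10, which gives the immunoproteasome. PA28 and PA200 are activators that cap the core in place of the 19S particle. Hepatocytes degrade much protein by this route beside autophagy.

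Liver RNA of 10-week-old mice was sequenced in 2 groups of 3 libraries. In the Li-KO group Klf15 was knocked out in the liver only, and the Ctl group carried the Albumin-Cre transgene. The albumin promoter drives Cre in hepatocytes, so other liver cells would keep the gene. KLF15 is a transcription factor of the Kruppel-like family, known for its part in hepatic amino acid and glucose metabolism. The labels do not give the exon removed, the sex of the mice, the feeding state or the time of day. Nor do they say whether each library is a mouse of its own, so the p-values cover the spread among the 6 libraries, which may be technical. Totals were 30716763 to 43375781 fragments per library. Levels are CPM, counts scaled to the TMM-adjusted library size. FPKM, which is per length, was used for sums over members, for ratios and where members were ranked by abundance. The sums of cell markers are in CPM, which is not per length. A log2 fold change is Li-KO minus Ctl with its SE. A gene was called at an adjusted p under 0.05 in edgeR's quasi-likelihood test (Benjamini-Hochberg over 16533 genes).

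Klf15 was at 54.3, 41.6 and 51.8 CPM in Li-KO replicates 0, 1 and 2, against 345, 174 and 196 CPM in Ctl replicates 0, 1 and 2. It was lower in every Li-KO library (log2 fold change -2.28 ± 0.26, edgeR adjusted p = 0.0027). Replicates are given in the order 0, 1, 2 below. Whole liver was sequenced, so fewer cells of a type and less RNA per cell cannot be told apart.

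Proteasome transcripts were slightly higher in Li-KO liver as a family, and 5 of the 44 tested genes rose. These were Psmd13, Psmd9, Psmb10, Psmb4 and Psmc3, which stand 1 each in the lid, the assembly chaperones, the immunoproteasome, the constitutive beta ring and the base ATPases. They make 11.4% of the members, against 6.11% of all genes tested that were called higher. No member was called lower by edgeR, against 5.9% of all genes, so that the share called in either direction, 11.4%, was close to the 12.0% of all genes. At an unadjusted p under 0.05, 15 members were higher and 2 lower, a count that was not made over all genes. DESeq2 called 6 members higher and 1 lower, against 1497 higher and 1516 lower among the 15861 genes to which it gave an adjusted p.

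The shift was small and spread over most members. The log2 fold change was above 0 in 34 of 44 members, which is 77.3%, against 49.2% of all genes tested. Its median was 0.18 over the members and -0.01 over all genes, whose quartiles lay at -0.36 and 0.32. In CPM, all 3 Li-KO libraries lay above all 3 Ctl libraries in 20 members, or 45.5%, against 17.4% of all genes. The opposite separation was seen in 2 members, Psma8 and Psmd11, against 17.8% of all genes. In FPKM the groups overlapped in Psma5, Psmb1, Psmb7, Psmd2, Psmd4 and Psmd11, and the share over all genes was not counted. The members share libraries and are known to be regulated together, so they are not independent replicates of the change.

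**Figure D1:**
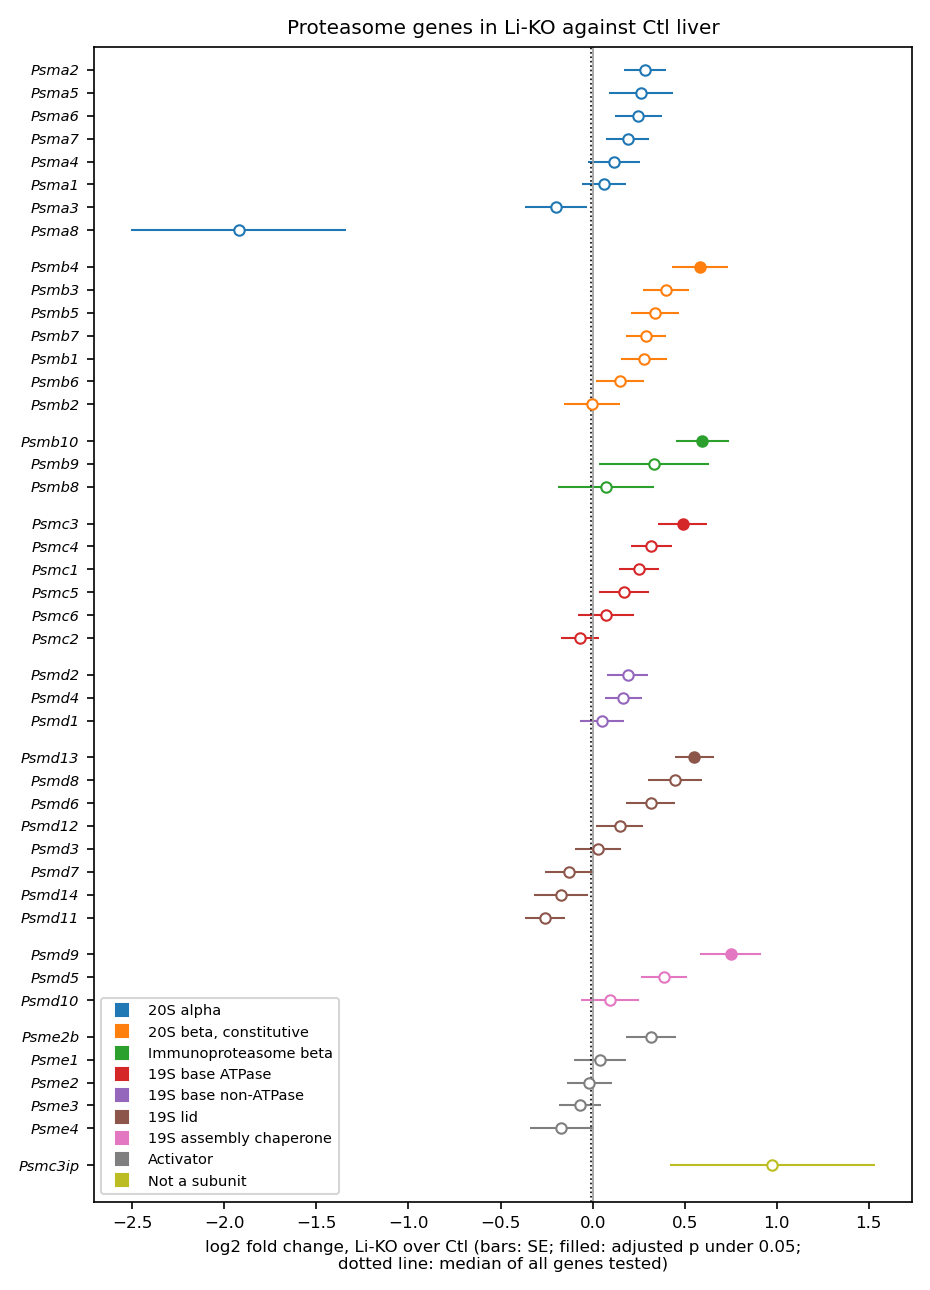
The log2 fold change of Li-KO over Ctl (horizontal axis, bars are SE) of the 44 tested members, grouped by class and coloured by it. Filled points are the 5 called genes, the dotted line is the median of all genes tested at -0.01, and 34 of the 44 points lie above 0.

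In the constitutive 20S core 1 of 14 subunits rose, or 7.14%, close to the 6.11% of all genes tested that were called higher. The median log2 fold change was 0.15 over the 8 alpha genes and 0.29 over the 7 constitutive beta genes. The alpha genes include the testis gene Psma8, low in liver and at -1.92, so the 2 medians are not of like sets. The rings were not tested against each other. The 14 constitutive core genes, Psma1 to Psma7 and Psmb1 to Psmb7, had a median log2 fold change of 0.26. Of them, 12 were above 0, or 85.7%, against 49.2% of all genes tested. In 8, or 57.1%, all Li-KO libraries lay above all Ctl libraries in CPM, against 17.4% of all genes. Psma5, Psmb1 and Psmb7 of these 8 overlapped between groups in FPKM. Their summed FPKM was 911, 950 and 903 in Li-KO libraries, against 797, 745 and 889 in Ctl libraries. Every Li-KO sum was thus above every Ctl sum, with the lowest Li-KO sum close to that of Ctl replicate 2. The means were 921 ± 25.1 FPKM in Li-KO and 810 ± 72.8 FPKM in Ctl liver (SD, n = 3 each).

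Psmb4 (ENSMUSG00000005779.12, chr3:94884093-94886961, minus strand, mm10) encodes a non-catalytic beta subunit and was the only called gene of the constitutive core. It was at 129, 147 and 128 CPM in Li-KO libraries, against 108, 75.5 and 85.5 CPM in Ctl libraries. The groups did not overlap, and the Li-KO mean was 49.9% higher by the fit (log2 fold change 0.58 ± 0.15, edgeR adjusted p = 0.042). Psmb4 was also among the most abundant members per length, at 103 ± 9.30 FPKM in Li-KO and 75.9 ± 10.7 FPKM in Ctl liver (SD, n = 3 each). The other constitutive beta genes were Psmb3, which was next at 0.40 ± 0.13 (edgeR adjusted p = 0.073), then Psmb5, Psmb7, Psmb1 and Psmb6, and Psmb2, whose log2 fold change was -0.002 ± 0.15.

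No alpha subunit was called. Among Psma1 to Psma7 the log2 fold change ran from -0.20 ± 0.17 for Psma3 to 0.29 ± 0.12 for Psma2. Psma2, Psma5 and Psma6 did not overlap between groups in CPM, while Psma5 did in FPKM. Psma3 and Psma5 were listed far below the other core genes per length, at 4.63 and 7.97 FPKM in Li-KO and 5.58 and 6.87 FPKM in Ctl liver. Psma5 has copies elsewhere in the genome that are at least 95% identical over part of the transcript, and so have Psma4, Psmb3, Psmb5, Psmc1, Psmd2 and Psmd11, so the fragments of these 7 genes may be split with their copies and their levels are uncertain.

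Psma8, a testis alpha subunit that replaces Psma7 in germ cells, was near the limit of detection. It had 3, 7 and 20 fragments in Li-KO libraries, against 53, 32 and 39 in Ctl libraries. The groups did not overlap, and its log2 fold change of -1.92 ± 0.58 missed the threshold (edgeR adjusted p = 0.066), whereas DESeq2 called it lower. At 0.125 ± 0.086 FPKM in Li-KO and 0.518 ± 0.084 FPKM in Ctl liver (SD, n = 3 each) it is a minor transcript beside Psma7, at 86.1 ± 4.41 FPKM in Li-KO and 78.3 ± 8.21 FPKM in Ctl liver.

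The 17 genes of the 19S particle had a median log2 fold change of 0.17, with 13 above 0 and 4 below. Of them 2 were called higher, or 11.8%, against 6.11% of all genes tested, and none was called lower by edgeR. Their summed FPKM was 797 ± 19.1 in Li-KO and 705 ± 41.6 in Ctl liver (SD, n = 3 each). The 14 core genes and the 17 particle genes were not tested against each other.

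Psmd13 (ENSMUSG00000025487.15, chr7:140881968-140898643, plus strand), a scaffold subunit of the lid, had the smallest p of all members. It was at 82.6, 82.5 and 86.1 CPM in Li-KO libraries, against 60.6, 55.0 and 55.7 CPM in Ctl libraries. The groups were wide apart and the libraries of each were close together (log2 fold change 0.55 ± 0.10, 46.6% higher, edgeR adjusted p = 0.016). Its neighbour Sirt3, which encodes the main mitochondrial protein deacetylase, is read in the opposite direction, and the RefSeq starts of both genes are separated by 84 bases (GRCm38.p6). Sirt3 was at 89.1, 103 and 88.1 CPM in Li-KO libraries, against 67.2, 59.4 and 57.5 CPM in Ctl libraries, and it rose (0.61 ± 0.12, edgeR adjusted p = 0.019). Its call, too, was lost without Li-KO replicate 1, Ctl replicate 1 or Ctl replicate 2 (edgeR adjusted p of at most 0.089). In the GENCODE annotation the exons of the pair share 342 bases, 10.1% of Psmd13's exonic bases. The library kit keeps the strand, but no source used here says whether the counting did, and the part of shared reads in either value was not tested.

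The rest of the lid did not shift as one. Psmd8, an essential lid subunit, followed Psmd13 with 0.45 ± 0.15 (edgeR adjusted p = 0.082) and Psmd6 with 0.32 ± 0.13. Psmd3 and Psmd12 lay nearer to 0. Psmd14, the deubiquitinase of the lid, and Psmd7, its binding partner, had -0.17 ± 0.14 and -0.13 ± 0.13. Psmd11 was the only 26S subunit besides Psma8 with all Li-KO libraries below all Ctl libraries in CPM. It was at 53.2, 58.9 and 54.4 CPM in Li-KO, against 70.1, 66.7 and 62.4 CPM in Ctl liver. In FPKM its groups overlapped, with 20.95 in Li-KO replicate 1 and 20.84 in Ctl replicate 2. It was not called (-0.26 ± 0.11, edgeR adjusted p = 0.16).

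In the base, Psmc3 rose. This ATPase subunit (ENSMUSG00000002102.15, chr2:91054009-91066369, plus strand) was at 175, 161 and 149 CPM in Li-KO libraries, against 114, 101 and 131 CPM in Ctl libraries. The groups did not overlap (log2 fold change 0.49 ± 0.13, 40.3% higher, edgeR adjusted p = 0.047). It shares 215 exonic bases with Slc39a13, a zinc transporter gene on the opposite strand, whose log2 fold change was 0.52 ± 0.16 (edgeR adjusted p = 0.069). Of the other ATPases, Psmc4 and Psmc1 did not overlap between groups (0.32 ± 0.11 and 0.25 ± 0.11), Psmc5 and Psmc6 were above 0, and Psmc2 was at -0.07 ± 0.10. The non-ATPase base genes Psmd1, Psmd2 and Psmd4, scaffolds and ubiquitin receptors, ranged from 0.05 to 0.19 with none called.

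**Figure D2:**
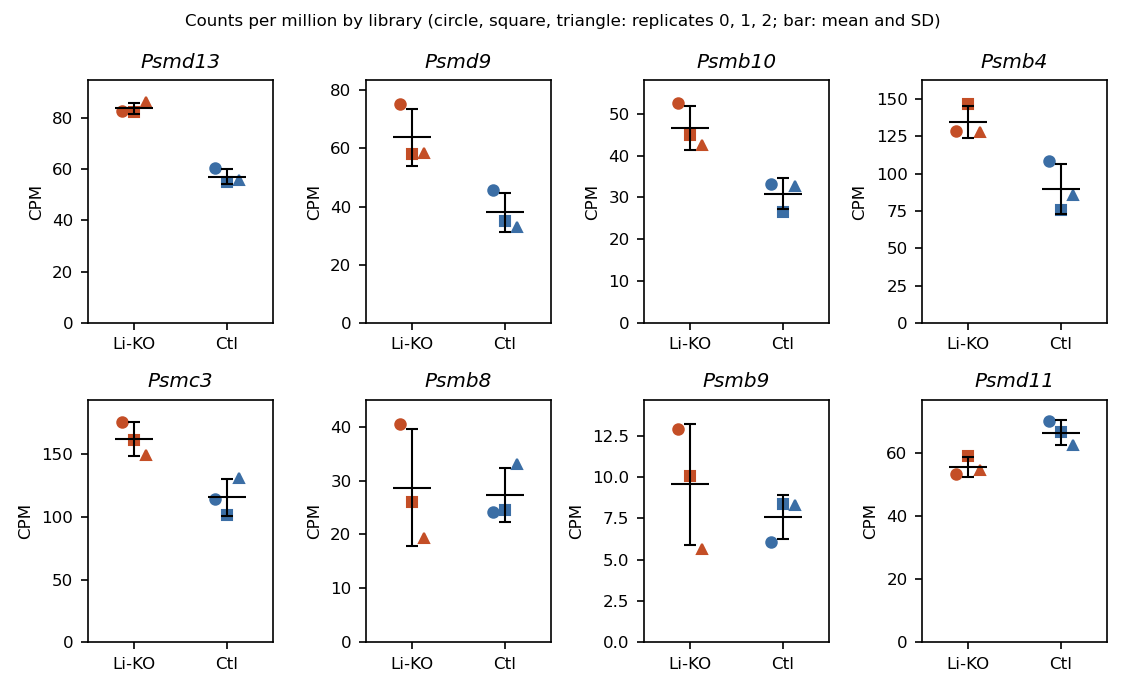
CPM in each library (Li-KO left, Ctl right) of the 5 called members, the immunoproteasome genes Psmb8 and Psmb9, and Psmd11. Symbols mark replicates 0, 1 and 2, with the mean and SD as bars; the 5 called members do not overlap between groups, Psmb8 and Psmb9 do, and Psmd11 lies lower in all Li-KO libraries.

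Psmd9 had the largest log2 fold change of the called members. It encodes a chaperone that helps to assemble the base and leaves before the particle is complete (ENSMUSG00000029440.15, chr5:123169413-123250131, plus strand). It was at 75.1, 58.0 and 58.5 CPM in Li-KO libraries, against 45.7, 35.1 and 33.1 CPM in Ctl libraries. Replicate 0 was the highest library of each group, and the groups did not overlap (0.75 ± 0.17, 68.1% higher, edgeR adjusted p = 0.028). The gene's GENCODE span also holds Hpd, an enzyme of tyrosine breakdown, on the opposite strand with 0 shared exonic bases. Hpd fell by 4.19 ± 0.23 on the log2 scale (edgeR adjusted p = 0.00024). The RefSeq start of Psmd9, used for the promoter below, lies inside this span, downstream of the GENCODE start. A non-coding RNA on the opposite strand, Gm26745, overlaps 25.5% of Psmd9's exonic bases and was too low to be tested. The other base chaperones were Psmd5 at 0.39 ± 0.12 (edgeR adjusted p = 0.077), without overlap between groups, and Psmd10, known as gankyrin, at 0.10 ± 0.16.

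Promoter letters are shown for Psmd9 because, of the called members, Psmc3 was not searched and Psmd9 was the one of the other 4 with the antioxidant response element core, TGACNNNGC, in its promoter, the letters through which NRF1 (Nfe2l1) is known to raise proteasome genes when the proteasome is impaired. The last 100 bases before its RefSeq start (chr5:123228090-123228189, plus strand, GRCm38.p6) follow, with capitals on matches to that core, to the CACCC box and to the GC box GGGCGG, searched on both strands; the first match runs into the GC box.
Psmd9: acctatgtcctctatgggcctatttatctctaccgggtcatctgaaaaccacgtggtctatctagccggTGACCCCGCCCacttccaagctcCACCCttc

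The same core stood in the 250 bases before the start of 4 other members, shown with up to 10 bases on each side, in the gene's direction, with the core in capitals. It reads forward in Psmb5 and Psmb6 and reversed in Psmc6 and Psmd12. It ends 39 bases before the start of Psmb5 (chr14:54618024-54618052, minus strand), at the base before the start of Psmb6 (chr11:70525338-70525366, plus strand), 219 bases before that of Psmc6 (chr14:45329587-45329615, plus strand) and 239 bases before that of Psmd12 (chr11:107479278-107479299, plus strand).
Psmb5: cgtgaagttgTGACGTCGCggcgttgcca
Psmb6: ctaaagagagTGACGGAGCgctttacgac
Psmc6: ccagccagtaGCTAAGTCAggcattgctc
Psmd12: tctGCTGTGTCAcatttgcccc

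RefSeq promoters were matched for 37 of the 44 tested members. The core was found in 5 of 37 members, or 13.5%, against 11.5% of 27025 genes with a RefSeq promoter. These 27025 include genes that were not tested here, so they are not matched to the members in expression. The CACCC box, letters that Kruppel-like factors are known to bind, was in 14 of the 37, or 37.8%, against 54.5%, and the GC box was in 21, or 56.8%, against 35.4%. Of the 5 genes with the core, Psmd9 rose, and Psmb5, Psmb6, Psmc6 and Psmd12 had log2 fold changes of 0.34, 0.15, 0.07 and 0.15. A match is a description of letters only.

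The immunoproteasome genes did not move together. Psmb10 (ENSMUSG00000031897.8, chr8:105935735-105938444, minus strand) rose, with 52.5, 45.0 and 42.4 CPM in Li-KO libraries, against 33.3, 26.6 and 32.7 CPM in Ctl libraries. The groups did not overlap (log2 fold change 0.60 ± 0.14, 51.1% higher, edgeR adjusted p = 0.033). Psmb8 was at 40.5, 26.04 and 19.4 CPM in Li-KO, against 24.2, 24.5 and 33.0 CPM in Ctl liver, and the groups overlapped (0.07 ± 0.26, edgeR adjusted p = 0.89). Psmb9 was at 12.9, 10.1 and 5.66 CPM in Li-KO, against 6.06, 8.37 and 8.30 CPM in Ctl liver, also with overlap (0.33 ± 0.30, edgeR adjusted p = 0.50). Psmb8 and Psmb9 had their highest value of all 6 libraries in Li-KO replicate 0 and their lowest in Li-KO replicate 2.

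Li-KO replicate 0 also had the highest summed level of immune cell markers, though not of every marker. The summed level of 14 leukocyte markers (Ptprc, Cd4 and others) was 89.5, 45.4 and 42.4 CPM in Li-KO libraries, against 51.0, 51.1 and 61.4 CPM in Ctl libraries. That of 13 Kupffer cell and macrophage markers was 691, 424 and 494 CPM in Li-KO, against 462, 482 and 643 CPM in Ctl liver. Ptprc, Clec4f, Vsig4, Timd4 and C1qa were higher in Ctl replicate 2 than in Li-KO replicate 0, and Timd4 was lowest there of all libraries. Adgre1, Cd5l, Marco, Csf1r and Lyz2 were highest in Li-KO replicate 0. None of the 14 and none of the 13 was at 0 in all libraries. Of the 14, 11 had enough counts to be tested, and edgeR called none of these 11 and none of the 13. Psmb10 had a log2 fold change of 0.52 without Li-KO replicate 0 (edgeR adjusted p = 0.069), and 0.52 to 0.65 over the 6 fits that left out 1 library, 5 of which did not call it. The part of these cells in the level of Psmb8, Psmb9 and Psmb10 was not tested.

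**Figure D3:**
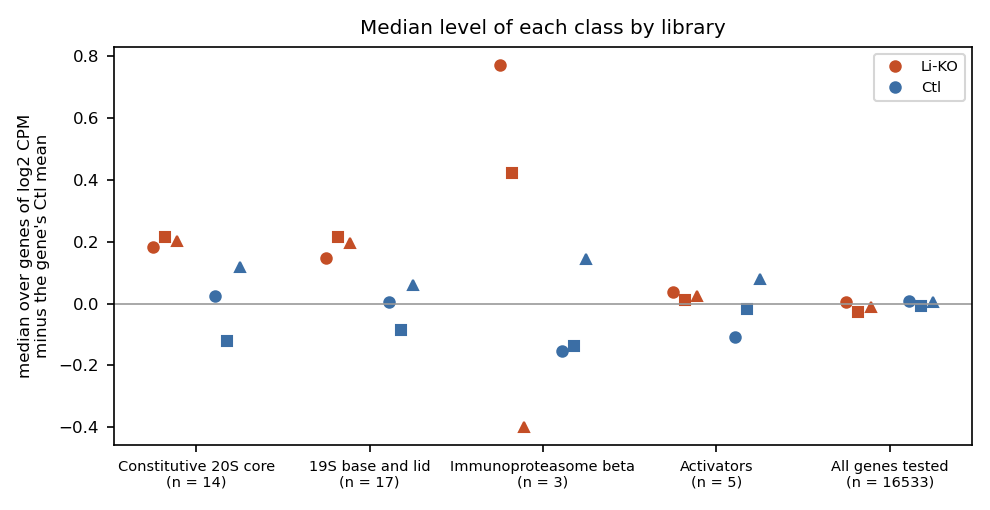
For each library (Li-KO left, Ctl right within a class) the median over the genes of a class of the log2 CPM minus the gene's Ctl mean. The core and the 19S particle lie at 0.15 to 0.22 in Li-KO libraries and at -0.12 to 0.12 in Ctl libraries, while the 3 immunoproteasome genes spread from -0.40 to 0.77 in Li-KO libraries.

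The FPKM ratio of each immunoproteasome subunit to the constitutive subunit it replaces was compared by an exact two-sided permutation test over libraries, which cannot go below p = 0.1 with 3 against 3. Psmb10 over Psmb7 was 0.427, 0.334 and 0.357 in Li-KO libraries, against 0.333, 0.255 and 0.278 in Ctl libraries. The groups did not overlap, by a narrow margin between Li-KO replicate 1 and Ctl replicate 0, and the log2 ratio differed by 0.37 (exact permutation p = 0.1, adjusted over the 3 pairs 0.3). Psmb8 over Psmb5 was 0.584, 0.397 and 0.358 in Li-KO, against 0.5003, 0.496 and 0.631 in Ctl liver, a log2 difference of -0.31 (exact permutation p = 0.3, adjusted 0.45). Psmb9 over Psmb6 was 0.053, 0.049 and 0.028 in Li-KO, against 0.034, 0.046 and 0.037 in Ctl liver, a log2 difference of 0.12 (exact permutation p = 0.8, adjusted 0.8).

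The constitutive partners were themselves not called. Psmb7, the trypsin-like subunit, was at 109, 122 and 118 CPM in Li-KO, against 93.0, 91.5 and 102 CPM in Ctl liver (0.29 ± 0.11, edgeR adjusted p = 0.12). Psmb5, the chymotrypsin-like subunit, was at 31.2, 29.5 and 25.1 CPM in Li-KO, against 22.1, 22.1 and 23.5 CPM in Ctl liver (0.34 ± 0.13, edgeR adjusted p = 0.12). In CPM both were higher in every Li-KO library, while in FPKM the groups overlapped for Psmb7. Psmb6, the caspase-like subunit, overlapped, at 131, 111 and 112 CPM in Li-KO, against 97.1, 101 and 121 CPM in Ctl liver (0.15 ± 0.13, edgeR adjusted p = 0.50).

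**Figure D4:**
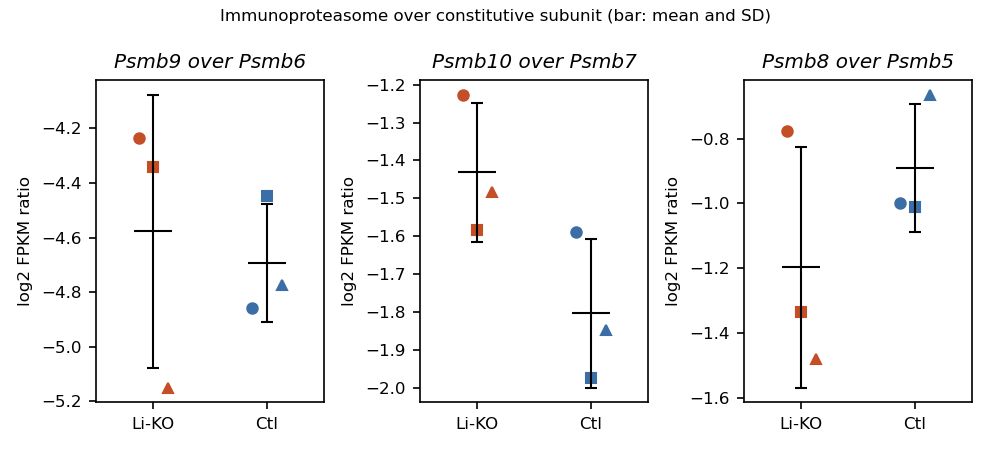
The log2 FPKM ratio of each immunoproteasome subunit over the constitutive subunit it replaces, in each library (Li-KO left, Ctl right; bars are mean and SD; each panel has its own vertical scale). Only Psmb10 over Psmb7 is without overlap, with a difference of 0.37.

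The activators differed little between groups, with a median log2 fold change of -0.02 over 5 genes and none called. Psme1 and Psme2 encode the interferon-inducible PA28 ring. Psme1 was at 91.0, 91.3 and 82.6 CPM in Li-KO, against 71.7, 84.8 and 101 CPM in Ctl liver (0.04 ± 0.14). Psme2 was at 17.95, 16.1 and 17.8 CPM in Li-KO, against 17.9, 17.3 and 17.4 CPM in Ctl liver (-0.02 ± 0.12). Both overlapped between groups. Psme2b, whose transcript is 99.4% identical to that of Psme2 over 794 bases, was at 35.1, 38.0 and 34.6 CPM in Li-KO, against 33.1, 25.0 and 28.3 CPM in Ctl liver, without overlap (0.32 ± 0.14, edgeR adjusted p = 0.17). The split of fragments between Psme2 and Psme2b is uncertain.

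Psme3, the nuclear PA28 gamma, was at 71.9, 83.0 and 80.8 CPM in Li-KO, against 76.5, 83.9 and 87.0 CPM in Ctl liver (-0.07 ± 0.11). Psme4, which encodes PA200, was at 261, 306 and 390 CPM in Li-KO, against 330, 337 and 409 CPM in Ctl liver (-0.17 ± 0.17). Neither separated the groups. Psmc3ip, the recombination factor, was low and variable, at 1.61, 0.771 and 0.510 CPM in Li-KO, against 0.312, 0.646 and 0.504 CPM in Ctl liver (0.98 ± 0.56, edgeR adjusted p = 0.28).

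Genes around the proteasome that the symbol rule leaves out are given beside all genes tested, of which 6.11% were called higher and 5.9% lower. Of 16 other parts, assembly factors and inhibitors, 1 rose and none fell, with a median log2 fold change of 0.09. It was Psmg3, a chaperone of the alpha ring, at 11.8, 13.1 and 12.2 CPM in Li-KO, against 7.43, 7.59 and 7.96 CPM in Ctl liver (0.69 ± 0.15, edgeR adjusted p = 0.025). Its call was lost without Li-KO replicate 1 or any 1 Ctl library (edgeR adjusted p of at most 0.095). Of 8 genes of the NRF1 pathway, 1 fell, Syvn1, the ubiquitin ligase of endoplasmic reticulum quality control that acts on NRF1 (-1.16 ± 0.32, edgeR adjusted p = 0.049), and the median was 0.02. Nfe2l1, which encodes NRF1 itself, had a log2 fold change of 0.05. The call of Syvn1 held only without Li-KO replicate 2 when 1 library was left out (edgeR adjusted p of at most 0.16).

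Among the tested ubiquitin genes, activating enzymes and shuttle factors, Ubqln2 fell. Ubqln2, a shuttle that carries tagged proteins to the proteasome, was at 11.4, 5.59 and 12.6 CPM in Li-KO, against 27.5, 27.2 and 24.4 CPM in Ctl liver (-1.42 ± 0.27, edgeR adjusted p = 0.017). The groups did not overlap, and the call was lost without Ctl replicate 1 or 2 (edgeR adjusted p of at most 0.069).

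None of 10 genes of MHC class I antigen presentation was called by edgeR, with a median log2 fold change of -0.08. Of 18 interferon response genes, 1 rose, Irf7, a regulator of the type I response, and the median was 0.08. Irf7 was at 77.9, 54.7 and 33.5 CPM in Li-KO, against 28.0, 26.1 and 30.8 CPM in Ctl liver (0.97 ± 0.27, edgeR adjusted p = 0.0497), and Li-KO replicate 0 was again the highest library. With 1 library left out, its call held only without Li-KO replicate 2 (edgeR adjusted p of at most 0.16). Of 13 hepatocyte markers, 4 were skipped by Cuffdiff. Tdo2 and Fah fell among the 9 tested, of which 5 were above 0 (median log2 fold change 0.22). Of 15 endothelial, stellate and cholangiocyte markers, Sox9 fell and 8 were above 0 (median 0.01). Over all genes tested, 6.11% were called higher and 5.9% lower.

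Each of the 5 calls was lost in some fits that left out 1 library. In these fits edgeR called 0 to 6 members higher, against 198 to 1102 of all genes tested. Psmd13 lost its call without Li-KO replicate 1, Ctl replicate 1 or Ctl replicate 2, at an edgeR adjusted p of at most 0.080. Psmd9 (at most 0.11) lost it without Li-KO replicate 0 or 1, or Ctl replicate 1 or 2, as did Psmb4 (at most 0.15). Psmb10 (at most 0.12) and Psmc3 (at most 0.16) kept it only without Li-KO replicate 2. The log2 fold changes of the 5 in these 6 fits ran from 0.42 for the lowest value of Psmc3 to 0.90 for the highest of Psmd9. In each of the 5 every Li-KO library lay above every Ctl library. That none fell to 0 was therefore all but fixed in advance and is no check. In limma on log2(FPKM + 1), Psmb4 and Psmc3 were not called, while Psmd13, Psmd9 and Psmb10 were.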

How the data were processed

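Mouse liver libraries, 3 Li-KO and 3 Ctl, were compared. STAR, the mm10 build, Cufflinks and Cuffdiff are named per the submitters' processing notes; their versions, the annotation and whether counting used the strand are not given in these sources. The raw fragments the authors deposited are estimated counts, 3.29% of them not whole, and were rounded. The FPKM values the authors deposited are scaled for length and depth by Cuffdiff, per the file headers. The 77 genes that Cuffdiff skipped were left out, none of them a member. Gene IDs were matched to symbols, 48051 matched and 381 not. With edgeR 4.0.16, filterByExpr at its defaults (minimum count 10) left 16533 genes, which were TMM-scaled and tested by quasi-likelihood with the group as the only term. DESeq2 1.42.0, limma 3.58.1 on log2(FPKM + 1), other scalings, no filter, a replicate block and leaving out each library were alternatives. FPKM ratios were compared by exact permutation. Depth limits low genes such as Psma8. The edgeR, DESeq2 and limma fits were tested on simulated data in which every gene had the same dispersion, not estimated from these libraries. That test does not give their error rates in these data. Gene overlaps came from GENCODE M21 and promoters from RefSeq GRCm38.p6. Copies are transcripts at least 95% identical over at least 30% of the member's transcript (BLAST 2.17.0). The members and lists were chosen with earlier results of these data known. Genes given by library were the called members, the immunoproteasome genes and their partners, the activators and up to 4 called genes of each other list. Others given by library, or named for their neighbourhood, were chosen after their values were seen, and so were the genes shown by sequence. One result among the ubiquitin genes is not reported here.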

Additional observations from a re-analysis of the deposited data

How the results depend on the processing

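The number of members called higher was 5 with RLE or upper quartile scaling and without the filter, each time the same genes, and 6 with DESeq2, which added Psmd8. It was 3 (Psmd13, Psmd9 and Psmb10) with limma on log2(FPKM + 1) and on log2(FPKM + 0.1), and 1 (Psmd13) with limma on all genes above 0. Over all genes, those called higher were 1036 with RLE and 1037 with upper quartile scaling (of 16533 each), and 1135 of 25160 without the filter. The limma fits called 753 and 794 higher (of 14553 each), and 395 of 25176. The number of members called lower was 1, Psma8, with DESeq2 and with limma on all genes above 0. Over all genes these fits called 1516 of 15861 and 413 of 25176 lower. Leaving out 1 library gave 0 to 6 members called higher and 0 to 1 called lower. Over all genes tested, these fits called 198 to 1102 higher and 234 to 1447 lower. The fits with 2 libraries in a group also called fewer genes in all in 5 of 6 cases. Leaving out 1 library gave a median log2 fold change of the members of 0.15 to 0.25, a log2 ratio difference of Psmb9 over Psmb6 of -0.054 to 0.40, and -0.0006 without Li-KO replicate 1. The replicate block called 3 members higher (Psmd13, Psmd9 and Psmb10), against 956 of 16533 genes. The replicate numbers do not pair the libraries by the labels, and deviations of same-numbered libraries correlated at 0.02, 0.08 and 0.07; the deviations of Li-KO replicate 0 correlated slightly more with Ctl replicate 1. Where a value moved, the cause was not tested. Depth limits Psma8 and Psmc3ip, at about 1 CPM or less.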
